A study of Mus musculus with 6 samples.

Results

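The antioxidant and glutathione genes described here are the superoxide dismutases, catalase, glutathione peroxidases, peroxiredoxins, thioredoxins and thioredoxin-named proteins, glutaredoxins, glutathione transferases, the enzymes of glutathione synthesis, the heme oxygenases, the NAD(P)H quinone reductases and sulfiredoxin. A rule on gene symbols, which uses no measured value, picked 123 probes with 81 symbols out of 25697 probes with 18138 symbols. The 81 symbols stand for 79 current genes, since Txnl2 is now Glrx3 and Txnl4 is now Txnl4a. They are counted by symbol below. Of these, 81 probes with 60 symbols passed the detection filter and were compared between hearts with the human SRY gene activated and control hearts.

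The hearts came from male mouse pups of the FVB strain (FVB/N in the methods) at postnatal day 6, 3 labelled hSRY-ON and 3 labelled hSRY-OFF, with 1 array for each heart. The hSRY-ON pups carried a single copy of the Signalox-hSRY transgene at a fixed locus. Cre recombinase passed on in the oocyte by a Ddx4-Cre mother had recombined it at the zygote stage, so that the broadly active CAG promoter drove FLAG-tagged human SRY together with EGFP. The pups chosen as hSRY-ON had not inherited the Ddx4-Cre transgene itself. The methods define hSRY-OFF as the same transgene without recombination, in which CAG drives DsRed2 and hSRY is silent. The text of the results describes the control littermates as carrying Ddx4-Cre alone or no transgene, so the genotype of the control hearts is uncertain. A single insertion of the transgene was used, and its promoter is not restricted to the heart or to a cell type. RNA was taken from dissected heart tissue, in which fewer cells of a type and less RNA per cell cannot be told apart.

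Antioxidant enzymes work in relays that are set up separately in each cell compartment. Superoxide dismutases turn superoxide into hydrogen peroxide. Catalase, glutathione peroxidases and peroxiredoxins then remove the peroxide. Glutathione, thioredoxin and glutaredoxin return the glutathione peroxidases and peroxiredoxins to the reduced state with electrons from NADPH. Heart muscle is rich in mitochondria, whose matrix has its own superoxide dismutase (Sod2), peroxiredoxin (Prdx3), thioredoxin (Txn2) and thioredoxin reductase (Txnrd2). Glutathione transferases join glutathione to reactive compounds, and many of them, with Nqo1 and Hmox1, are textbook targets of the transcription factor Nrf2.

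Each value below is a log2 intensity after background correction and quantile normalization, and each difference, the log2 fold change, is that of hSRY-ON less hSRY-OFF with its standard error from limma. Probes detected on 3 or more of the 6 arrays entered the test. A probe was called at a Benjamini-Hochberg adjusted p under 0.05 over all 12970 tested probes. Of all tested probes, 27.5% were called, 13.8% higher and 13.7% lower in the hSRY-ON hearts. Between 47.2% and 51.3% of probes were detected on an array, and hSRY-OFF replicate 3 was the dimmest array. Nothing in the sources used here states that the 3 hearts of a group came from separate litters, so p-values measure the spread between these hearts. Levels are compared between hearts for a probe and not between probes.

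Of the 81 tested antioxidant and glutathione probes, 18 (22.2%) were called higher and 16 (19.8%) lower in the hSRY-ON hearts, against the 13.8% and 13.7% over all probes. The number lower fell to 7 when hSRY-OFF replicate 1 or 2 was left out, to 8 without hSRY-ON replicate 1 and to 10 without hSRY-ON replicate 2. The remaining 47 probes were not called. Groups that did not overlap were common, in 48 of the 81 probes and in 5858 of all 12970 tested probes. The called probes belonged to 15 genes that were higher and 13 that were lower. Over all 81 probes the median log2 fold change was 0.11, beside -0.00464 over all probes, and the median size of the change without its sign was 0.37 against 0.30. The increases were largest among the glutathione transferases Gstm6, Mgst1 and Gsta3, the endoplasmic reticulum protein Txndc5 and the secreted peroxidase Gpx3. The decreases were largest for Gstk1, Nqo1 and Prdx5.

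**Figure D1:**
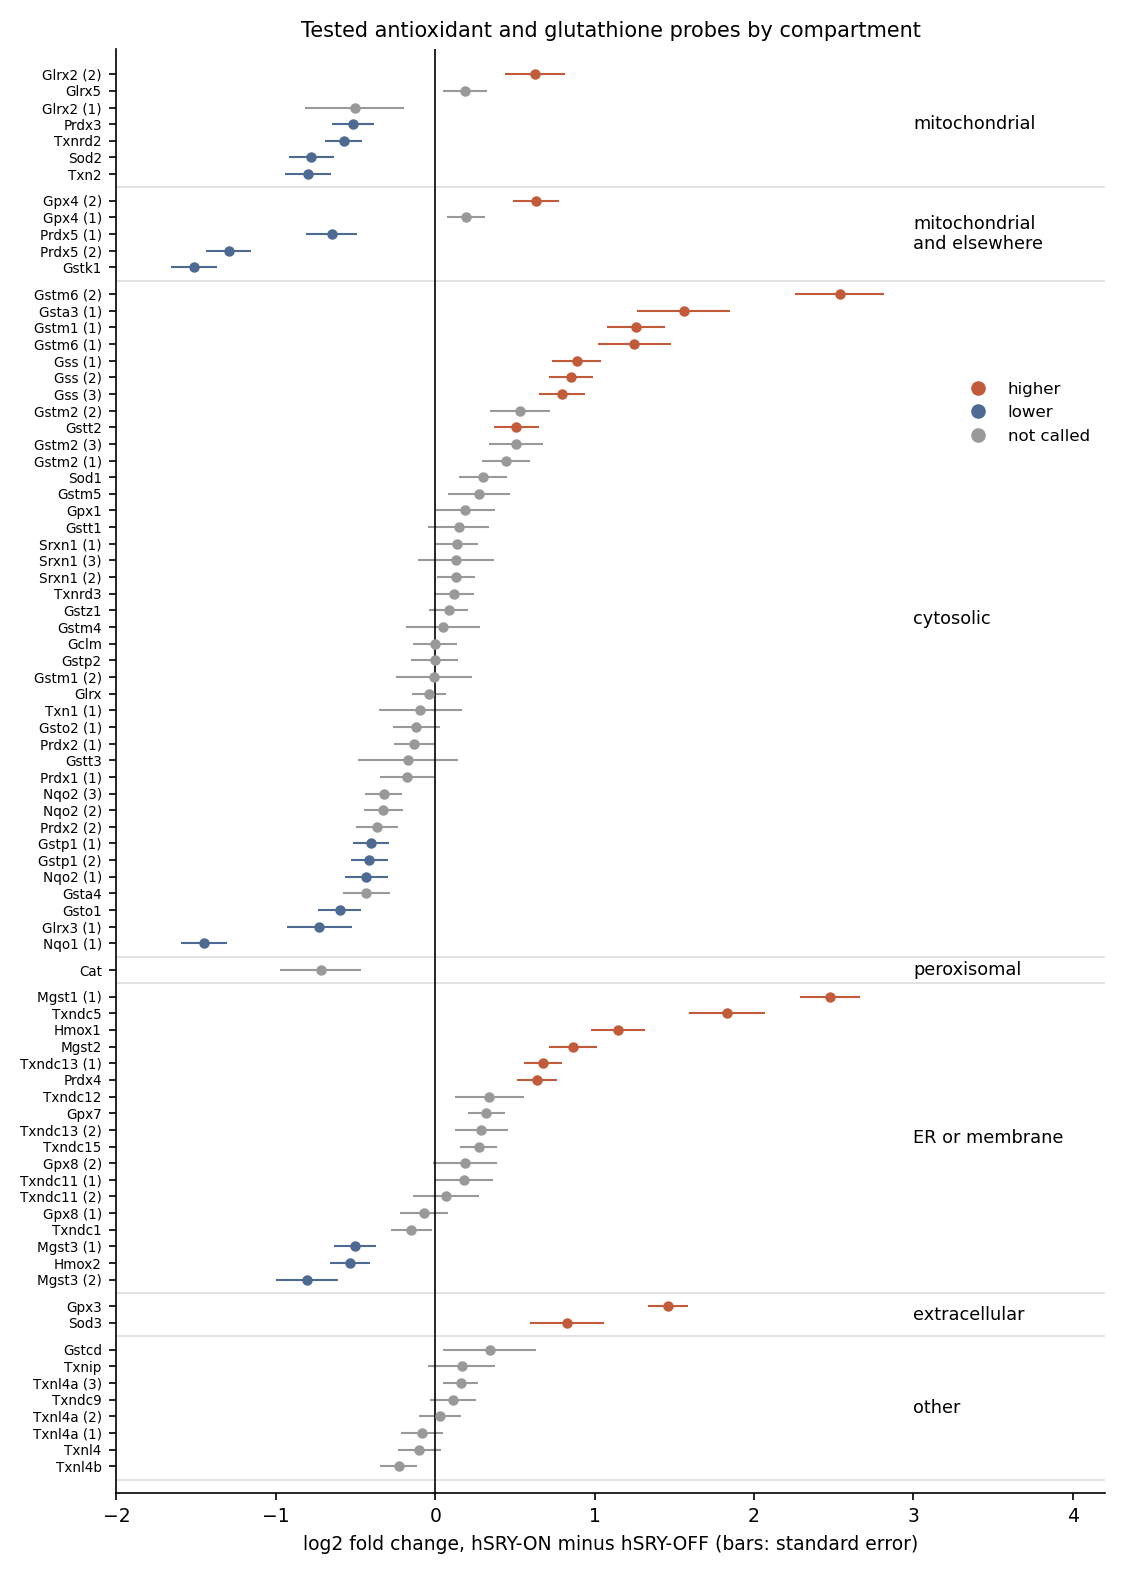
The 81 tested probes are grouped by the compartment of their protein, with the log2 fold change of hSRY-ON minus hSRY-OFF on the x axis, standard errors as bars and called probes in colour. A number in brackets ranks the probes of a gene by brightness. The mitochondrial probes lie mostly left of 0, between -0.80 and 0.63, while the cytosolic probes lie on both sides, between -1.45 and 2.54.

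The enzymes were described by the compartment of their protein. Over all tested probes, 13.8% were called higher and 13.7% lower. Of the 7 tested probes of the 6 mitochondrial genes, 4 were called lower and 1 higher, and their median log2 fold change was -0.52. Of the 40 tested probes of 28 cytosolic genes, 6 were called lower (15%) and 8 higher (20%), with a median of 0.07. The sign of that median is not settled, since it was -0.00373 with no probe filter, -0.0922 without normalization between arrays and 0.0125 without hSRY-ON replicate 3. The 18 probes of the endoplasmic reticulum and membranes had 6 higher and 3 lower, with a median of 0.28. Taking 1 probe a gene, the mitochondrial genes deviated from their own mean over the 6 hearts by a median of 0.34, 0.36 and 0.16 in hSRY-OFF replicates 1, 2 and 3. The same median was -0.28, -0.38 and -0.18 in hSRY-ON replicates 1, 2 and 3. The hearts of the 2 groups did not overlap in it. The cytosolic genes deviated by -0.0974 to -0.0015 in the hSRY-OFF hearts and by -0.0256 to 0.0173 in the hSRY-ON hearts, and those ranges overlapped. These counts and medians are descriptions of few genes, and the difference between compartments was not tested.

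Sod2, the manganese superoxide dismutase of the mitochondrial matrix, was lower in the hSRY-ON hearts. Its log2 intensity was 13.63, 13.80 and 13.40 in hSRY-OFF replicates 1 to 3 and 12.80, 12.74 and 12.96 in hSRY-ON replicates 1 to 3. The groups did not overlap, and the log2 fold change was -0.78 ± 0.14 (SE, adjusted p = 0.00678 by limma), which is 1.71-fold lower. Txn2, the mitochondrial thioredoxin, read 10.11, 9.94 and 9.76 in hSRY-OFF and 9.15, 8.97 and 9.29 in hSRY-ON hearts. All hSRY-ON hearts lay below all hSRY-OFF hearts, with a log2 fold change of -0.80 ± 0.15 (adjusted p = 0.00637). Both calls held when any 1 heart was left out.

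Txnrd2, the reductase that recharges Txn2, had log2 intensities of 9.22, 9.09 and 9.13 in hSRY-OFF and 8.58, 8.67 and 8.47 in hSRY-ON hearts. The groups were apart, and the change was -0.57 ± 0.12 (adjusted p = 0.00994). Prdx3, the matrix peroxiredoxin that Txn2 reduces, read 12.31, 12.30 and 12.12 in hSRY-OFF and 11.70, 11.58 and 11.89 in hSRY-ON hearts. It was lower in 3 of 3 hSRY-ON hearts, at -0.52 ± 0.13 (adjusted p = 0.024). The Prdx3 value stayed between -0.60 and -0.45 with a heart left out, but it missed the threshold without hSRY-OFF replicate 1 or 2 or hSRY-ON heart 1 or 2 (highest adjusted p = 0.0894).

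Neither of the mitochondrial glutaredoxins was called lower. Glrx5, which acts in iron-sulfur cluster assembly, read 11.69, 11.66 and 11.49 in hSRY-OFF and 11.96, 11.60 and 11.85 in hSRY-ON hearts. These values overlapped, and the change of 0.19 ± 0.14 was not called (adjusted p = 0.349). Glrx2 was measured by probes that disagreed. The brightest ranged from 7.30 to 8.68 in hSRY-OFF and from 7.39 to 7.63 in hSRY-ON hearts, with a change of -0.51 that was not called (adjusted p = 0.266). A dimmer probe, detected on 1 of 3 hSRY-OFF arrays, was higher by 0.63 (adjusted p = 0.044), and its call was kept in only 1 of the 6 fits with a heart left out, that without hSRY-OFF replicate 1, with values of 0.47 to 0.79. The direction for Glrx2 is therefore uncertain.

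**Figure D2:**
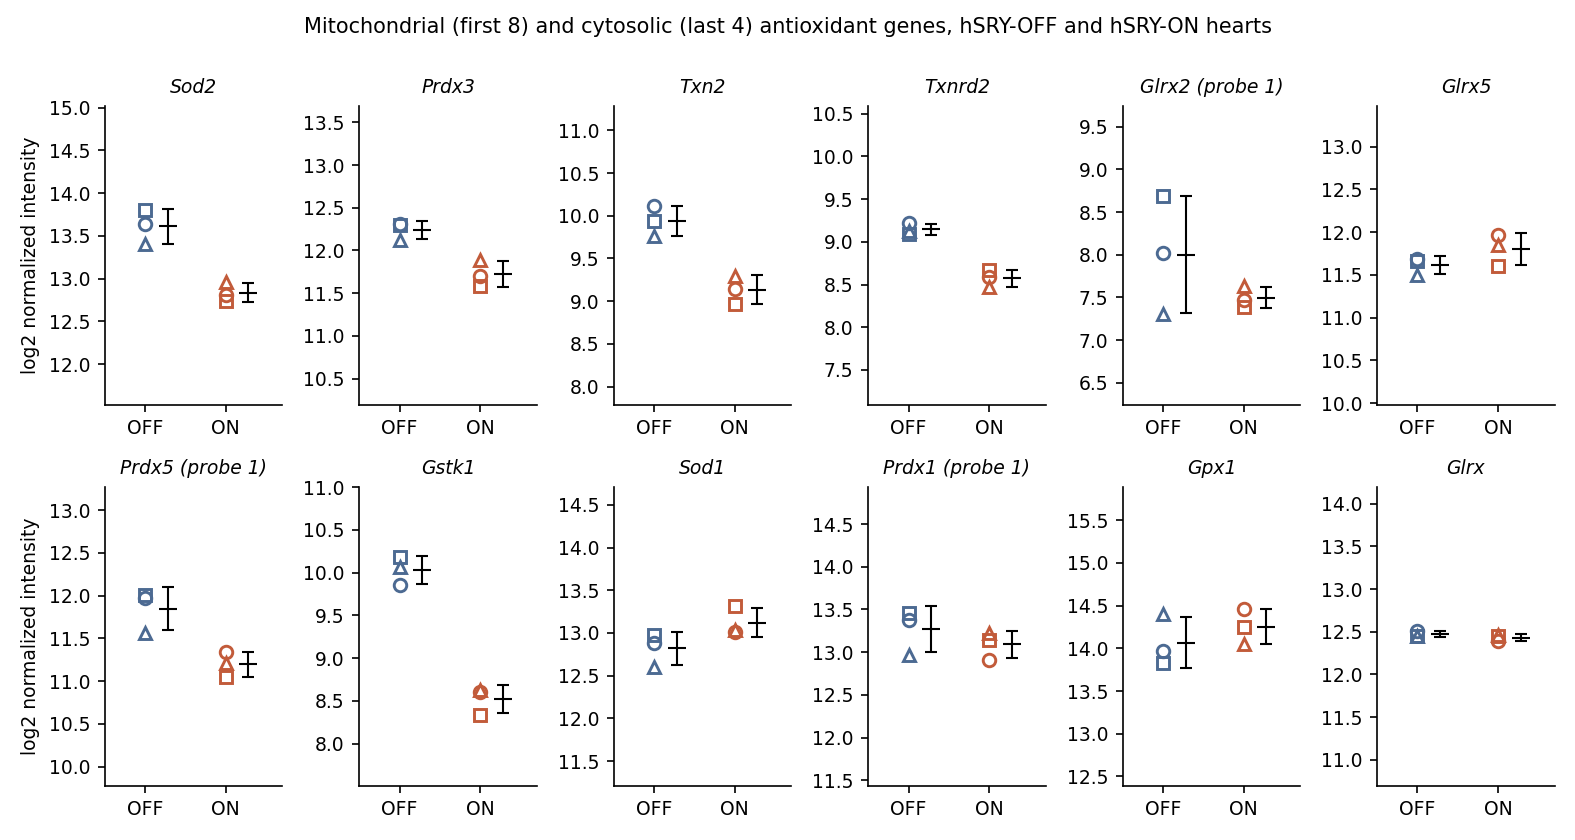
Each panel shows the log2 normalized intensity of 1 probe in the 3 hSRY-OFF (blue) and 3 hSRY-ON (orange) hearts, with circle, square and triangle for replicates 1, 2 and 3 and the mean ± SD in black. Panel heights span the same log2 range. Sod2, Prdx3, Txn2, Txnrd2, Prdx5 and Gstk1 were lower in every hSRY-ON heart, while Prdx1, Gpx1 and Glrx overlapped between the groups. Over all tested probes, the groups did not overlap in 5858 of 12970.

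Enzymes that are found in mitochondria and elsewhere included Gstk1, the kappa glutathione transferase of mitochondria and peroxisomes, which had the largest decrease of all 81 probes. Gstk1 read 9.86, 10.19 and 10.06 in hSRY-OFF and 8.60, 8.33 and 8.63 in hSRY-ON hearts. The gap between the groups was wider than either group's spread, and the change was -1.52 ± 0.14 (adjusted p = 0.000523), or 2.86-fold lower. Prdx5, a peroxiredoxin of mitochondria, peroxisomes and cytosol, read 11.98, 12.01 and 11.56 in hSRY-OFF and 11.34, 11.05 and 11.21 in hSRY-ON hearts on its brighter probe. The change was -0.65 ± 0.16 on that probe (adjusted p = 0.0215) and -1.30 ± 0.14 on the other (adjusted p = 0.000857). The brighter probe missed the threshold without hSRY-OFF replicate 1 or 2 or hSRY-ON heart 2 or 3, with values of -0.79 to -0.57 over the left-out hearts, while the other kept its call throughout.

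Gpx4, the selenoenzyme that reduces lipid peroxides in membranes, was not lower. Its bright probe read 12.37, 12.26 and 12.19 in hSRY-OFF and 12.47, 12.56 and 12.37 in hSRY-ON hearts, a change of 0.19 ± 0.12 that was not called (adjusted p = 0.266), with a 95% interval of -0.08 to 0.47. A dim second probe was called higher by 0.63 (adjusted p = 0.0159). That call was lost without hSRY-OFF replicate 1 or 2, with values of 0.50 to 0.70 over the left-out hearts.

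Heart muscle markers moved with the mitochondrial enzymes. Of 9 cardiomyocyte genes tested, 5 were lower (Pln, Tnni3, Ryr2, Mb and Myh6) and none higher. Their mean log2 intensity was 12.38 to 12.64 in hSRY-ON and 12.92 to 13.15 in hSRY-OFF hearts. Actc1 overlapped between the groups at -0.20. Myl2, Myl3 and Nppa were not called, but lay between 15.25 and 15.42 at the top of the scale, where a change may not be measurable. The part of cardiomyocyte content in the lower mitochondrial enzymes was not tested.

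Of the cytosolic counterparts of the mitochondrial enzymes, Sod1, Prdx1, Prdx2, Txn1 and Glrx were not called. Txnrd1 did not pass the detection filter, and Glrx3 was called lower. Sod1, the copper-zinc superoxide dismutase, read 12.88, 12.97 and 12.61 in hSRY-OFF and 13.01, 13.32 and 13.03 in hSRY-ON hearts. Every hSRY-ON heart was above every hSRY-OFF heart, but the change of 0.30 ± 0.15 did not pass (adjusted p = 0.177, 95% interval -0.05 to 0.65). Its interval does not overlap that of Sod2, which ran from -1.11 to -0.44. Other such pairs did overlap, namely Prdx1 with Prdx3 (-0.82 to -0.21) and Txn1 (-0.70 to 0.51) with Txn2 (-1.14 to -0.46). The difference within a pair was not tested. Prdx1, an abundant cytosolic peroxiredoxin, read 13.38, 13.46 and 12.96 in hSRY-OFF and 12.91, 13.14 and 13.22 in hSRY-ON hearts, a change of -0.18 ± 0.17 (adjusted p = 0.469, 95% interval -0.57 to 0.21). Its groups overlapped.

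Prdx2, the peroxiredoxin best known from red blood cells, read 14.52, 14.80 and 14.77 in hSRY-OFF and 14.61, 14.49 and 14.61 in hSRY-ON hearts. The values overlapped at -0.13 ± 0.13 (adjusted p = 0.477), and a dimmer probe gave -0.37 (adjusted p = 0.0752). Gpx1, the main cytosolic glutathione peroxidase, read 13.97, 13.82 and 14.40 in hSRY-OFF and 14.46, 14.25 and 14.05 in hSRY-ON hearts, with a change of 0.19 ± 0.19 (adjusted p = 0.486, 95% interval -0.24 to 0.62). Of the erythroid markers, 2 of the 7 tested were lower (Hbb-b1 and Hbb-b2), against 13.9% of all tested genes. The mean level of the 7 overlapped between the groups, at 9.86 to 10.87 in hSRY-ON and 10.39 to 11.32 in hSRY-OFF hearts.

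Srxn1, which repairs overoxidized peroxiredoxins, read 8.18, 8.07 and 8.01 in hSRY-OFF and 8.06, 8.39 and 8.21 in hSRY-ON hearts. The groups overlapped, and the log2 fold change was 0.13 on each of its 3 probes, with none called. Glrx, the cytosolic glutaredoxin, was the steadiest of these genes, at 12.51, 12.45 and 12.46 in hSRY-OFF and 12.39, 12.45 and 12.46 in hSRY-ON hearts (-0.04 ± 0.11, adjusted p = 0.823). Txn1, the cytosolic thioredoxin, was measured by a dim probe that read 6.60, 6.85 and 5.77 in hSRY-OFF and 6.40, 6.27 and 6.27 in hSRY-ON hearts. Its change of -0.09 ± 0.26 was not called (adjusted p = 0.82), and its other 2 probes were not well above background on any array. Glrx3 read 7.16, 7.32 and 6.60 in hSRY-OFF and 6.20, 6.20 and 6.49 in hSRY-ON hearts, and was called lower at -0.73 (adjusted p = 0.034). It missed the threshold without hSRY-OFF replicate 1 or 2 or hSRY-ON heart 1 or 2, with values of -0.95 to -0.58.

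Several known enzymes of the cytosol have no value here. Txnrd1, Gclc and both probes of Prdx6 did not pass the detection filter, since each was above background on at most 1 array. Gsr, glutathione reductase, has no probe under that symbol. In all, 42 probes were not tested, and 21 symbols had no tested probe, among them Gpx2, Gpx5, Gpx6, Gsta1, Gsta2, Gstm3, Gstt4 and Txnl1. Gpx2 was detected on 2 of 3 hSRY-ON and on 0 of 3 hSRY-OFF arrays. For these genes no difference was detectable with these probes.

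Catalase, the peroxisomal enzyme that breaks down hydrogen peroxide, read 8.63, 9.01 and 7.94 in hSRY-OFF and 7.76, 7.74 and 7.92 in hSRY-ON hearts. All hSRY-ON hearts lay below all hSRY-OFF hearts, hSRY-OFF replicate 3 by only a small margin, and the change of -0.72 ± 0.25 was not called (adjusted p = 0.0711). It was called under 4 of 10 alternatives that keep all hearts, at -0.85 to -0.50 (adjusted p = 0.0371 to 0.0481), and without hSRY-OFF replicate 3, at -1.01 (adjusted p = 0.00675). In the extracellular space both tested enzymes were higher. Gpx3, the secreted plasma glutathione peroxidase, read 13.39, 13.45 and 13.69 in hSRY-OFF and 15.00, 15.01 and 14.91 in hSRY-ON hearts. The hSRY-ON hearts were close together and well above the controls, at 1.46 ± 0.13 (adjusted p = 0.000376), or 2.75-fold higher. Sod3, the superoxide dismutase bound to extracellular matrix, read 6.53, 6.76 and 7.25 in hSRY-OFF and 7.87, 7.85 and 7.30 in hSRY-ON hearts. The groups nearly touched, at 0.83 ± 0.23 (adjusted p = 0.0343). The Sod3 call was lost without hSRY-OFF replicate 1 or 2 or hSRY-ON heart 1 or 2, with values of 0.66 to 1.03.

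Glutathione transferases moved in both directions. Of 26 tested probes of 20 genes, 7 were higher (26.9%) and 6 lower (23.1%), against 13.8% and 13.7% over all tested probes. Mgst1, a membrane enzyme of the endoplasmic reticulum and outer mitochondrial membrane that conjugates glutathione and reduces lipid peroxides, had the largest increase of a bright probe. It read 10.19, 9.83 and 10.23 in hSRY-OFF and 12.72, 12.73 and 12.23 in hSRY-ON hearts. No hSRY-ON heart came near the controls, and the change was 2.48 ± 0.19 (adjusted p = 0.000208), or 5.57-fold higher. Mgst3, of the same membrane family, went the other way, from 13.26, 13.49 and 13.54 in hSRY-OFF to 12.81, 12.96 and 13.00 in hSRY-ON hearts. Its log2 fold change was -0.50 (adjusted p = 0.0258) on this probe and -0.80 (adjusted p = 0.0193) on a second.

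The Mgst3 calls depended on single hearts. The first was lost without hSRY-OFF replicate 2 or 3 or hSRY-ON heart 1 or 2, at -0.58 to -0.44, and the second without hSRY-OFF replicate 1 or 2 or hSRY-ON heart 1, at -0.92 to -0.63. Mgst2 was detected on all 3 hSRY-ON arrays and on no hSRY-OFF array, so that it was tested only through the group in which it was higher. It was at least 1.23-fold higher in the hSRY-ON hearts (adjusted p = 0.0053), as a bound against the dimmest detected signal of each control array. Leaving out any hSRY-ON heart took it below the filter.

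Among the cytosolic transferases, alpha- and mu-class genes had the largest increases. Gsta3, an alpha-class transferase, read 6.23, 7.02 and 6.15 in hSRY-OFF and 8.35, 8.19 and 7.53 in hSRY-ON hearts. The spread was wide within each group but the groups were apart, at 1.56 ± 0.29 (adjusted p = 0.00716). Gstm1 read 8.66, 8.97 and 8.44 in hSRY-OFF and 9.96, 10.19 and 9.71 in hSRY-ON hearts. It was higher by 1.26 ± 0.18 (adjusted p = 0.00251), whereas a second, dim probe of Gstm1 overlapped at -0.01 (adjusted p = 0.984).

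Gstm6 was higher on both of its probes. The brighter read 7.60, 6.88 and 7.75 in hSRY-OFF and 8.64, 8.54 and 8.80 in hSRY-ON hearts, a change of 1.25 ± 0.23 (adjusted p = 0.00637). The dimmer went from 5.30, 4.85 and 5.96 to 8.19, 7.66 and 7.88, a change of 2.54 ± 0.28 (adjusted p = 0.000895), and was detected on 1 of 3 hSRY-OFF arrays, so the size of that change rests on values near background. The 3 probes of Gstm2 changed by 0.45 to 0.53 with every hSRY-ON heart above every hSRY-OFF heart, but none was called (adjusted p = 0.0614 to 0.0708). Gstm4 and Gstm5 overlapped between the groups, at 0.05 and 0.28. The mu-class genes are close copies of each other, as are Gstp1 and Gstp2, and how far a probe of one binds the transcript of another could not be judged without the probe sequences.

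The other classes changed less. Gsto1, an omega-class enzyme with glutaredoxin-like activity, was lower at -0.60 (adjusted p = 0.0147), a call lost without hSRY-OFF replicate 1 over a range of -0.69 to -0.52. The brightest probes of Gstp1, the pi-class enzyme, gave -0.40 (adjusted p = 0.0326) and -0.41 (adjusted p = 0.0341). Leaving out any heart ended the first of these calls (-0.44 to -0.37), and leaving out any heart but hSRY-OFF replicate 3 ended the other (-0.47 to -0.37). Gstt2 was higher by 0.51 (adjusted p = 0.0313), a call kept only without hSRY-ON replicate 3, at 0.43 to 0.62. Gsta4, which removes the lipid aldehyde 4-hydroxynonenal, was below the controls in 3 of 3 hearts at -0.43 but was not called (adjusted p = 0.0639). Gstz1, Gstt1, Gstt3, Gsto2 and Gstp2 overlapped between the groups, with log2 fold changes of -0.17 to 0.15.

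**Figure D3:**
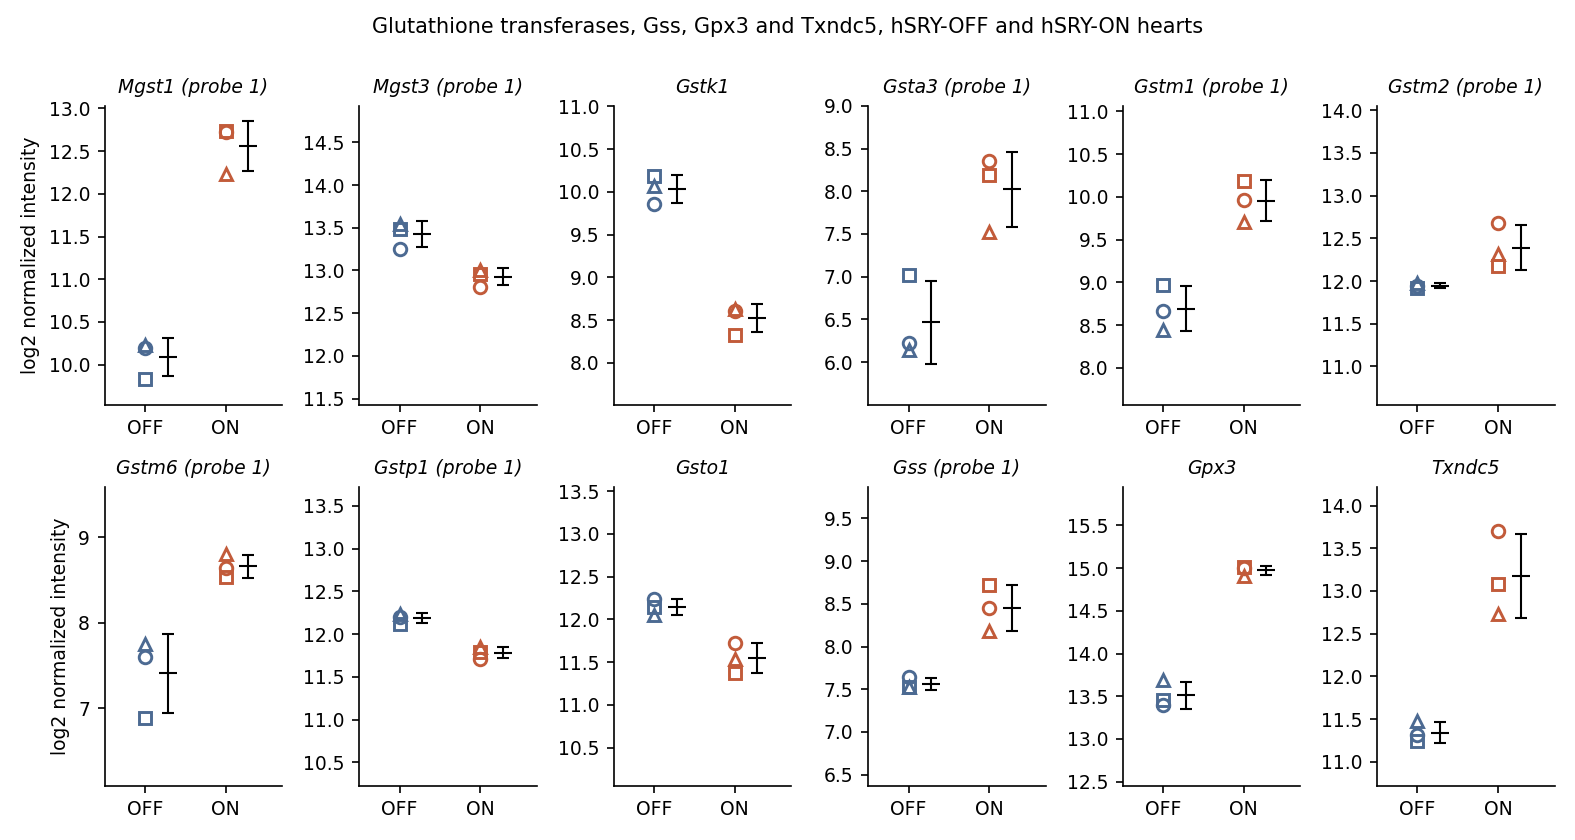
Each panel gives the log2 normalized intensity of 1 probe in the hSRY-OFF (blue) and hSRY-ON (orange) hearts, with circle, square and triangle for replicates 1, 2 and 3 and the mean ± SD in black, all over the same log2 range. Mgst1, Gsta3, Gstm1, Gstm6, Gss, Gpx3 and Txndc5 were higher in every hSRY-ON heart, and Mgst3, Gstk1, Gstp1 and Gsto1 were lower in every one. Over all tested probes, the groups did not overlap in 5858 of 12970.

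Genes typical of other cell types moved beside these increases. Over all tested genes, with 1 probe a gene, 14.9% were called higher and 13.9% lower. Of the 9 macrophage and neutrophil markers tested, 5 were higher (Cd14, Lyz2, Cd68, Mrc1 and Lyz) and none lower, and their mean was 8.89 to 9.32 in hSRY-ON and 8.13 to 8.51 in hSRY-OFF hearts. Emr1, Csf1r, S100a9 and S100a8 were not called, at -0.21, 0.40, 0.58 and 1.10. Itgam and Ptprc were above background on no array. Among 9 hepatocyte markers only 3 could be tested, 2 of which were higher (Ahsg and Ttr), with a mean of 8.07 to 8.31 in hSRY-ON and 6.0 to 6.68 in hSRY-OFF hearts. Alb, Apoa1, Apoa2 and Fgb, which define hepatocytes, did not pass the detection filter. Alb and Fgb were above background on no array. Apoa1 was detected on 2 of 3 hSRY-ON and 0 of 3 hSRY-OFF arrays, and Apoa2 on 1 of 3 and 0 of 3. Ttr was above background on no hSRY-OFF array, so that it was tested only through the group in which it was higher, and it was at least 3.87-fold higher. Of 4 adipocyte markers tested, Ucp1 and Adipoq were called higher by 3.67 and 1.48, Cfd was not called, and Cidea was below the controls in every hSRY-ON heart at -1.05 without being called (adjusted p = 0.0691). Ucp1 overlapped between the groups, since hSRY-OFF replicate 3 read 8.88 and hSRY-ON replicate 2 read 8.80. Fabp4, not tested, was detected on 2 of 3 hSRY-OFF and 0 of 3 hSRY-ON arrays. Plin and Lep were above background on no array. For the adipocyte list, the mean overlapped between the groups, at 7.61 to 9.11 in hSRY-ON and 6.32 to 7.92 in hSRY-OFF hearts. Smooth muscle markers had 2 of 3 higher (Acta2 at 0.53 and Tagln at 1.81), with a mean of 10.51 to 11.12 in hSRY-ON and 10.03 to 10.42 in hSRY-OFF hearts. Myh11, also tested, went the other way. It was below the controls in every hSRY-ON heart at -0.42 without being called (adjusted p = 0.114). Cnn1 was above background on no array. Of 5 endothelial markers, Cdh5 and Tek were lower and Emcn higher, with a mean of 10.75 to 10.87 and 10.92 to 11.04, and none of 5 fibroblast markers was called. Scgb1a1, a secreted protein of airway cells, read 13.74 in hSRY-ON replicate 1 and 4.53 to 6.52 in the other hearts. Sftpa1, Nkx2-1 and Cldn18 were above background on no array, and Sftpc on 1 hSRY-ON array. Sftpb, the only lung marker tested, was detected on 3 of 3 hSRY-ON and 1 of 3 hSRY-OFF arrays. It read 4.66, 4.73 and 5.58 in hSRY-OFF and 5.88, 5.40 and 5.70 in hSRY-ON hearts, a change of 0.67 that was not called (adjusted p = 0.093). The calls of Mgst1, Gsta3, Gpx3 and Hmox1 held when any 1 heart was left out, which does not show what a cell type contributed. Whether cells of these types carry part of the changes of Mgst1, Gsta3, Gpx3 or Hmox1 was not tested.

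Glutathione synthesis was represented by its second enzyme and by the regulatory subunit of its first. Gss, glutathione synthetase, read 7.65, 7.52 and 7.53 in hSRY-OFF and 8.45, 8.72 and 8.19 in hSRY-ON hearts on its brightest probe. All 3 of its probes were called higher, at 0.89, 0.85 and 0.80 (adjusted p = 0.00561, 0.00386 and 0.00604), with no overlap between the groups. Gclm, the modifier subunit of glutamate-cysteine ligase and a textbook Nrf2 target, read 8.06, 8.18 and 7.93 in hSRY-OFF and 8.21, 8.07 and 7.88 in hSRY-ON hearts. These values overlapped, and the change was -0.00 ± 0.14 (adjusted p = 0.993, 95% interval -0.32 to 0.32).

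Hmox1 and Nqo1, both textbook Nrf2 targets, moved in opposite directions. Hmox1, the inducible heme oxygenase, read 6.82, 7.25 and 7.38 in hSRY-OFF and 8.41, 8.19 and 8.30 in hSRY-ON hearts. It was higher by 1.15 ± 0.17 (adjusted p = 0.00258), or 2.21-fold, in every hSRY-ON heart. Hmox2, its constitutive relative, was lower at -0.54 (adjusted p = 0.0178), a call lost without hSRY-OFF replicate 1 or 2 or hSRY-ON heart 1 at -0.61 to -0.49. Nqo1, a cytosolic quinone reductase, went from 9.02, 8.88 and 9.25 in hSRY-OFF to 7.45, 7.61 and 7.74 in hSRY-ON hearts. The groups were far apart, at -1.45 ± 0.14 (adjusted p = 0.000633), or 2.74-fold lower. The brightest of 3 Nqo2 probes was called lower by a narrow margin (-0.43, adjusted p = 0.0487) and held only without hSRY-ON replicate 2, at -0.53 to -0.38, while the other 2 probes were not called, each at -0.32.

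In the endoplasmic reticulum, Txndc5, a protein disulfide isomerase of the secretory pathway, read 11.31, 11.24 and 11.48 in hSRY-OFF and 13.70, 13.09 and 12.73 in hSRY-ON hearts. The hSRY-ON hearts were spread over nearly 1 unit but all lay above the controls, at 1.83 ± 0.24 (adjusted p = 0.00164), or 3.56-fold higher. Prdx4, the peroxiredoxin of the same compartment, read 12.79, 12.83 and 12.65 in hSRY-OFF and 13.54, 13.30 and 13.34 in hSRY-ON hearts. It was higher by 0.64 ± 0.13 (adjusted p = 0.00857) in every hSRY-ON heart. Txndc13, now named Tmx4, a membrane thioredoxin-related protein, was higher by 0.68 (adjusted p = 0.00588) on one probe and not called on a second at 0.29. Gpx7 and Txndc15 were above the controls in all hSRY-ON hearts at 0.32 and 0.27 without passing the threshold, and Gpx8, Txndc1, Txndc11 and Txndc12 overlapped between the groups, with log2 fold changes of -0.15 to 0.34.

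None of the 8 tested probes of other thioredoxin-named genes and Gstcd was called. Gstcd, counted above with the glutathione transferases by its name, overlapped between the groups at 0.34 (adjusted p = 0.419 by limma). Txnip, the inhibitor of thioredoxin, lay between 12.39 and 12.87 in hSRY-OFF and between 12.52 and 13.22 in hSRY-ON hearts (0.17 ± 0.21, adjusted p = 0.59). Without adjustment, 0 of these 8 probes had a limma p under 0.05. The probes of the spliceosome genes Txnl4a (with Txnl4, an older name of it) and Txnl4b, whose proteins share the thioredoxin fold, gave log2 fold changes of -0.23 to 0.16. Txnrd3, a thioredoxin reductase best known from testis, overlapped between the groups at 0.12.

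Promoter sequences were read for the genes that changed. RefSeq start sites (build GRCm38.p6) gave windows of 300 bases, from 250 before to 50 after the start, for 70 of the 81 symbols. The short core of the antioxidant response element, TGACNNNGC, where the small Maf partners of Nrf2 bind, was searched on both strands. It was present in 12.4% of all 32851 mouse promoters. Among the genes called higher it was in 4 of 24 promoters (16.7%), among those called lower in 0 of 16, and among those not called in 7 of 36 (19.4%). The 4 genes were Mgst1, Gsta3, Txndc5 and Tmx4. Their stretches of 59 bases before the start are shown because these genes rose in the hSRY-ON hearts, each written 5′ to 3′ on the gene's strand with the matched letters in capitals.
Mgst1 (chr6:138140446-138140504, plus strand, match on the opposite strand): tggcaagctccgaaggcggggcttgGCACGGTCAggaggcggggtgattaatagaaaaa
Gsta3 (chr1:21240439-21240497, plus strand): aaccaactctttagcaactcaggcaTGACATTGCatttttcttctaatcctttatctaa
Txndc5 (chr13:38528019-38528077, minus strand): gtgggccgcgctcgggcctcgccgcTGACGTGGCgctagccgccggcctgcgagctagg
Tmx4 (chr2:134644171-134644229, minus strand, match on the opposite strand): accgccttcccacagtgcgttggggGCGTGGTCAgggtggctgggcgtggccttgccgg

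The matches began 56, 121, 138 and 83 bases before the start of Mgst1, Gsta3, Txndc5 and Tmx4. Gclm, Sod1, Prdx1 and Gstm5, which were not called, also held a match. The letters AACAAT, the core that the SRY protein binds, were in 10.7% of all promoters, in 0 of 24 promoters of genes called higher and in 0 of 16 of those called lower. Gpx1, Gpx8 and Txndc9, not called, held one. A match describes the letters in this window and not binding.

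The other genes of these pathways were counted from lists, with 1 probe a gene. Over all 9660 tested genes, 28.8% were called in this way, 14.9% higher and 13.9% lower. Of 8 tested genes for Nrf2 and its partners, 1 was higher and none lower. Bach1, the repressor that competes with Nrf2 and blocks Hmox1, read 6.61, 7.11 and 7.04 in hSRY-OFF and 7.86, 7.71 and 7.54 in hSRY-ON hearts, a change of 0.78 ± 0.17 (adjusted p = 0.0124). Nfe2l2, which encodes Nrf2, and its inhibitor Keap1 were not called, at -0.24 (adjusted p = 0.307) and 0.16 (adjusted p = 0.341). Among 15 other Nrf2 targets, 5 were higher and 1 lower, with Ephx1, microsomal epoxide hydrolase, at 1.15 ± 0.16 (adjusted p = 0.00223) and Akr1b3, aldose reductase, at -1.42 ± 0.34 (adjusted p = 0.0187).

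Of 12 tested genes for the supply, export and breakdown of cysteine and glutathione, 4 were higher and 1 lower. Dpep1, a dipeptidase that splits cysteinyl-glycine after glutathione is cleaved, read 7.85, 8.05 and 7.93 in hSRY-OFF and 11.36, 11.02 and 10.75 in hSRY-ON hearts. This was the largest change of these lists, at 3.10 ± 0.17 (adjusted p = 5.74e-05). Slc25a11, a mitochondrial carrier for oxoglutarate that has also been linked to glutathione import, read 12.85, 12.78 and 12.88 in hSRY-OFF and 11.53, 11.61 and 11.83 in hSRY-ON hearts. It was lower, at -1.18 ± 0.13 (adjusted p = 0.000801), with no overlap. Slc7a11, the cystine importer, did not pass the detection filter.

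NADPH supply had 2 genes higher and 2 lower of 11 tested. G6pdx, the first enzyme of the pentose phosphate pathway, was higher by 0.46 (adjusted p = 0.045). Aldh1l1 and Aldh1l2, the cytosolic and mitochondrial formyltetrahydrofolate dehydrogenases, were both called. Aldh1l1 was at least 2.0-fold higher (adjusted p = 0.00848), but with no hSRY-OFF array above background it was tested only through the group in which it was higher. Aldh1l2 changed by -1.0 ± 0.15 (adjusted p = 0.00283). Mitochondrial Idh2 was below the controls in every hSRY-ON heart at -0.70 without being called (adjusted p = 0.0537).

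All 3 tested metallothioneins, cysteine-rich metal binders, were higher. Mt1 read 13.82, 13.72 and 13.72 in hSRY-OFF and 14.74, 15.12 and 14.73 in hSRY-ON hearts, a change of 1.11 ± 0.14 (adjusted p = 0.00159). Mt2 and Mt3 changed by 1.71 (adjusted p = 0.0091) and 1.35 (adjusted p = 0.00159). Of 7 tested oxidases that make superoxide or hydrogen peroxide, 2 were higher and 3 lower, with Xdh, xanthine dehydrogenase, at 1.84 ± 0.27 (adjusted p = 0.00246) and Ddo, the peroxisomal D-aspartate oxidase, at -0.88 ± 0.13 (adjusted p = 0.00265).

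Of 11 genes for selenoprotein synthesis and other selenoproteins, Sep15 was higher (0.49, adjusted p = 0.0243), Secisbp2 was lower (-0.45, adjusted p = 0.0377) and 9 were not called. Of 4 methionine sulfoxide reductases and sestrins, the mitochondrial Msrb2 was lower (-0.71, adjusted p = 0.00636) and the endoplasmic reticulum form Msrb3 was higher (0.58, adjusted p = 0.02). Among 8 genes for the removal of aldehydes and methylglyoxal, 2 were higher and 2 lower. Aldh1a1, the cytosolic retinaldehyde dehydrogenase, was at least 2.86-fold higher (adjusted p = 0.00331), but with no hSRY-OFF array above background it too was tested only through the hSRY-ON hearts. The lower genes were Akr1b3, which stands in this list too, at -1.42, and Hagh, a glyoxalase, at -0.75 (adjusted p = 0.0046).

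**Figure D4:**
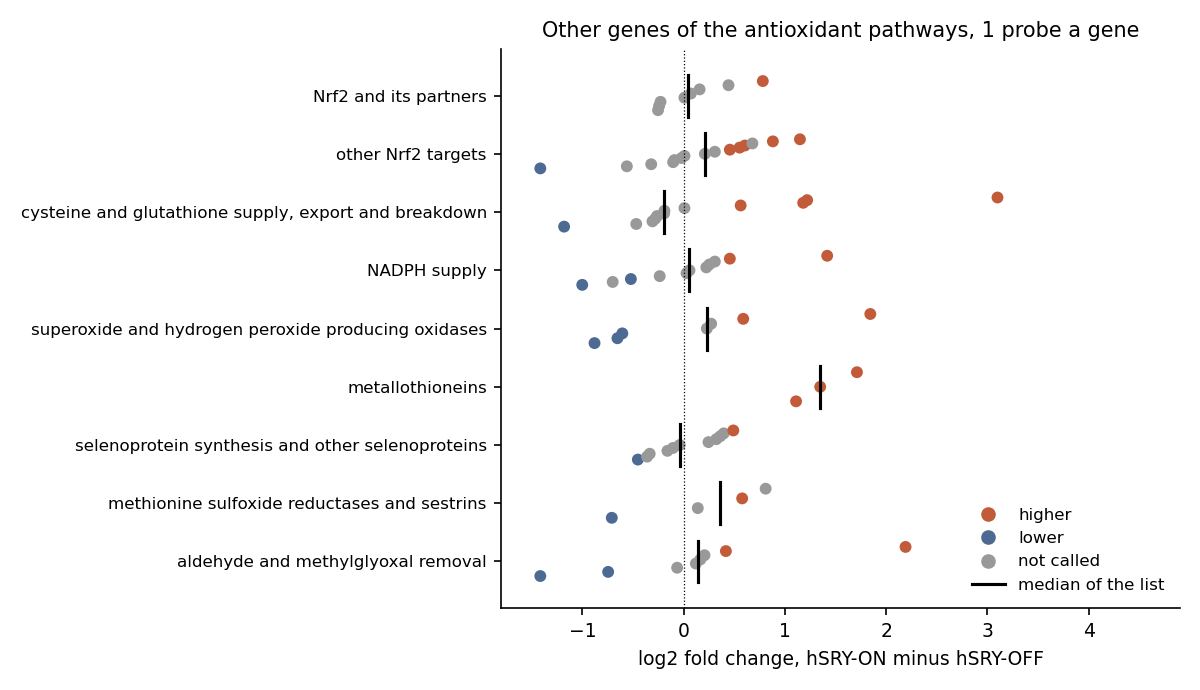
Each point is 1 tested gene of a pathway list, with the log2 fold change of hSRY-ON minus hSRY-OFF on the x axis, called genes in colour and the list's median as a black bar. All 3 metallothioneins lie right of 0 at a median of 1.35, while the other 8 lists hold genes on both sides.

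The called probes differed in how well they withstood other processing. Of the 34 called probes, 12 were called under all alternatives and without any 1 heart. They were Gpx3, Gsta3, Gstm1, the brighter Gstm6 probe, Hmox1, Mgst1 and Txndc5, all higher, and Gstk1, Nqo1, the dimmer Prdx5 probe, Sod2 and Txn2, all lower. Without normalization between arrays, 8 probes were called higher and 8 lower, and the Gss, Prdx4, Txndc13 and Txnrd2 calls were among those lost. No called probe changed direction under these alternatives.

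**Figure D5:**
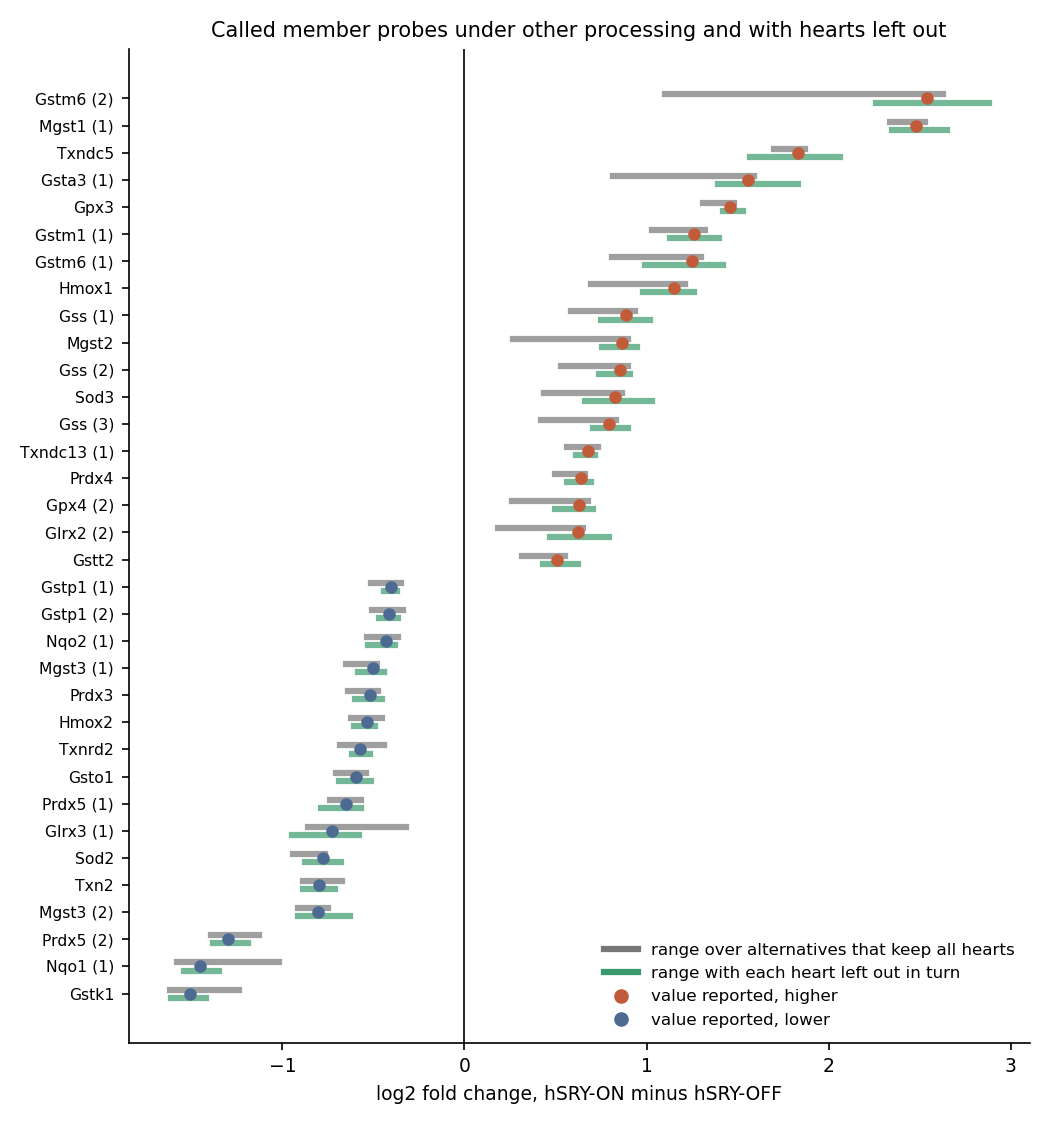
For each called probe, the point is the reported log2 fold change of hSRY-ON minus hSRY-OFF, the grey bar its range over the alternatives that keep all hearts, and the green bar its range with each heart left out in turn. No bar crosses 0. The range is widest for dim probes, such as the second Gstm6 probe.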

How the data were processed

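Total RNA of 6 hearts was hybridized to MouseRef-8 BeadChip arrays. The authors deposited each probe's bead intensity, without normalization, with its detection p-value on every array. The bead-summary software is not given in the sources used here. The methods name the R package TCC, built for counts and without stated settings, and the labels name limma.

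Here, limma 3.58.1 in R 4.3.3 applied a normal-exponential background correction (offset 16, negative controls inferred from the detection p-values), quantile normalized the intensities and took log2. Probes with a detection p under 0.05 on at least 3 of 6 arrays were fitted with lmFit and eBayes, group as the only term, and adjusted by Benjamini-Hochberg over all 12970. The smallest two-sided exact permutation p that 3 hearts against 3 allow is 0.1, so single values were not tested that way. The number of arrays limits the precision. Compartments, roles and pathway lists came from general knowledge. The members, lists and alternatives were chosen with earlier results of these data known.

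Named with values in every heart are members called with a log2 fold change of at least 1 in size, core enzymes, and the member with the largest called change in each role, each by its brightest probe. Of the pathway lists, the genes with the largest called increase and decrease are named. Genes outside this rule (Gsta4, Idh2, Gpx7, Nfe2l2 and others not called) were named after values were seen. In simulated data for this comparison, 126 of 199 changed probes (63.3%) of 13799 tested were called, 45.5% at a log2 size of 1 and 81.0% at 2, with 8 false calls. The simulation changed a far smaller share of probes than the 27.5% called in the data. The Benjamini-Hochberg cutoff depends on that share, so these rates do not give the share of real changes found here. Python 3.11.15 with matplotlib 3.10.9 drew the figures. The alternatives changed the background correction, normalization, detection filter, variance model, replicate block and the hearts included.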

Additional observations from a re-analysis of the deposited data

How the results depend on the processing

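Counts of called probes, 18 higher and 16 lower, stayed within 1.5 times under other background corrections, scalings, filters and variance models, with 1 exception. Without normalization between arrays 8 were higher and 8 lower, the median over all probes was -0.12, the mitochondrial median -0.64 and the cytosolic median -0.0922. Of all calls, 38.5% were then higher against 50.1%, 1897 (14.6%) probes were called in place of 3567, and the cause was not tested. The cytosolic median, 0.07, was 0.022 without background correction, 0.014 with scaling to the median, -0.00373 with no probe filter and 0.0227 with the brightest probe of each gene, so it has no settled sign. With a heart left out, 14 to 17 probes were higher and 7 to 15 lower, the mitochondrial median was -0.58 to -0.45 and the cytosolic 0.0125 to 0.11. Lower calls were fewest without hSRY-OFF replicate 1 or 2 (7 each), without hSRY-ON replicate 1 (8) and without hSRY-ON replicate 2 (10). Hearts of the same replicate number did not deviate together across probes (correlations of -0.02, 0.04 and -0.07). With 3 hearts in a group, this cannot exclude that hearts of the same number shared a litter. A replicate block gave 16 higher and 11 lower. The 42 probes that were not tested could not be compared.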
